A study of Mus musculus with 12 samples.

Results

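A group of 7 genes of cellular iron handling was followed through the transition of mouse embryonic stem cells (ESCs) to epiblast like cells (EpiLCs). They were picked by symbol from the ribosome profiling count table, which holds 22462 genes, and all 7 were found there and passed the expression filter. Fth1 and Ftl1 encode the heavy and light chains of ferritin, the shell that stores iron. Tfrc encodes the transferrin receptor, which brings transferrin-bound iron into the cell, and Slc11a2 encodes DMT1, which moves ferrous iron across membranes. Slc40a1 encodes ferroportin, the exporter of iron. Aco1 and Ireb2 encode the iron regulatory proteins IRP1 and IRP2.

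The labels name no cell line or genotype. For the differentiation to EpiLCs, the study's methods list a V6.5 line that carries miR290-mCherry and miR302-GFP reporters, which then are shared by both cell types. ESCs grew in Knockout DMEM with 15% fetal bovine serum, LIF and the 2i inhibitors PD0325901 and CHIR99021, which hold cells in the naive state. For EpiLCs, ESCs were plated for 24 hours, LIF and 2i were withdrawn, and the cells were harvested about 56 hours afterwards, so that time in culture without LIF and 2i is part of the comparison. From each of the 2 cell types there were 3 total RNA libraries and 3 libraries of ribosome protected fragments (RPFs), stretches of mRNA covered by a ribosome when nuclease cut the rest, which makes 12 libraries in 4 groups. The study calls its replicates biological, while the labels only number them, and p-values measure the spread between these libraries.

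Total counts per library ran from 2681439 to 14655015, and the EpiLC RPF libraries (2681439 to 5413144) were the shallowest group on average. Naive markers (6 genes, such as Esrrb and Klf4) summed to 1165 to 1304 CPM in ESC total RNA and 43.7 to 75.5 CPM in EpiLC total RNA, where CPM is the count scaled to a common library total. EpiLC markers (5 genes, such as Fgf5 and Otx2) went the other way, with 107 to 198 CPM in ESCs and 1117 to 1200 CPM in EpiLCs, so both labels matched their cells. Markers of other cells stayed low in total RNA. The highest sum in any EpiLC library was 20.7 CPM for primitive endoderm, 11.8 CPM for fibroblasts, 7.41 CPM for mesoderm and 5.29 CPM for erythroid cells, against at most 5.56, 2.23, 7.29 and 3.29 CPM in ESCs. In RPFs the highest was 34.4 CPM, for the 5 fibroblast markers in EpiLCs, against at most 7.16 CPM in ESCs. The rise of the primitive endoderm sum in total RNA came mostly from Dab2 (mean 1.73 CPM in ESCs and 12.9 CPM in EpiLCs). Gata4 and Sox7 were slightly higher in EpiLC total RNA, and Gata6, Sox17 and Foxa2 were lower. The markers Postn, Hbb-bh1 and Hba-x had 0 CPM in total RNA. The part of these cells in the results below was not tested.

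Iron regulates these genes largely after transcription. When iron is scarce, IRP1 and IRP2 bind iron responsive elements, short hairpins in the untranslated regions (UTRs) of mRNAs. Bound to a hairpin in the 5′ UTR they hold back initiation, as in the ferritin mRNAs and ferroportin, and bound to hairpins in the 3′ UTR they shield the mRNA from decay, as in Tfrc. Where iron is plentiful, IRP1 takes up an iron-sulfur cluster and becomes cytosolic aconitase, while IRP2 is degraded. Ribosome profiling with matched total RNA bears on the first arm, because the translational efficiency (TE), RPF divided by total RNA, reads out ribosome load per mRNA. For the second arm it gives only the mRNA level, in which synthesis and decay are not separated.

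The elements themselves were read from the annotated transcripts (Gencode M21, assembly GRCm38, the same assembly as mm10), since they are the sequences that IRP1 and IRP2 bind. The search asked for a C, 5 stem bases, the loop CAGTGN and 5 bases able to pair with the first 5, on the sense strand, with G to T pairs allowed. Fully paired matches were found in 4 of the 7 genes. Each line gives 29 bases 5′ to 3′ with the 6 loop bases in capitals.
Fth1, 5′ UTR: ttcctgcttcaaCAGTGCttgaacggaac
Ftl1, 5′ UTR: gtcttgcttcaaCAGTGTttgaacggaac
Slc40a1, 5′ UTR: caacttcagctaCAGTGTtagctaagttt
Tfrc, 3′ UTR, first: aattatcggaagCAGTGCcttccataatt
Tfrc, 3′ UTR, next: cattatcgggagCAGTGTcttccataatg
Tfrc, 3′ UTR, next: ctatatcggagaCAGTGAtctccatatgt
Tfrc, 3′ UTR, last: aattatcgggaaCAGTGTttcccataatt
Slc11a2, 3′ UTR, 1 unpaired position: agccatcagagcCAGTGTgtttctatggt

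The Fth1 element lies at chr19:9982732-9982760 (plus strand) and the Ftl1 element at chr7:45459779-45459807 (minus strand), both in exonic 5′ UTR. From the C that opens the hairpin, the Fth1 match starts 92 bases and the Ftl1 match 83 bases from the start of the transcript. The Slc40a1 element is at chr1:45925465-45925493 (minus strand), 95 bases from the transcript start and 207 bases before the coding sequence. The 4 Tfrc elements are on the plus strand of chromosome 16 at chr16:32631219-32631247, chr16:32631598-32631626, chr16:32631663-32631691 and chr16:32631710-32631738, between 888 and 1379 bases past the stop codon in a 3′ UTR of 2458 bases. When 1 unpaired position was allowed, Slc11a2 joined them through a site at chr15:100395153-100395181 (minus strand), 37 bases past the stop codon in 1 annotated transcript. The gene counts sum over transcripts, so Slc11a2 mRNAs with and without this site cannot be told apart here. Neither Aco1 nor Ireb2 held a match, even with 1 unpaired position.

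Such matches are rare. Among all protein-coding genes with a searchable UTR, 28 of 20604 (0.136%) held a fully paired match in the 5′ UTR and 128 of 21007 (0.609%) in the 3′ UTR. With 1 unpaired position these became 0.854% and 4.11%. A match is a description of the sequence and does not show that a protein binds there.

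**Figure D1:**
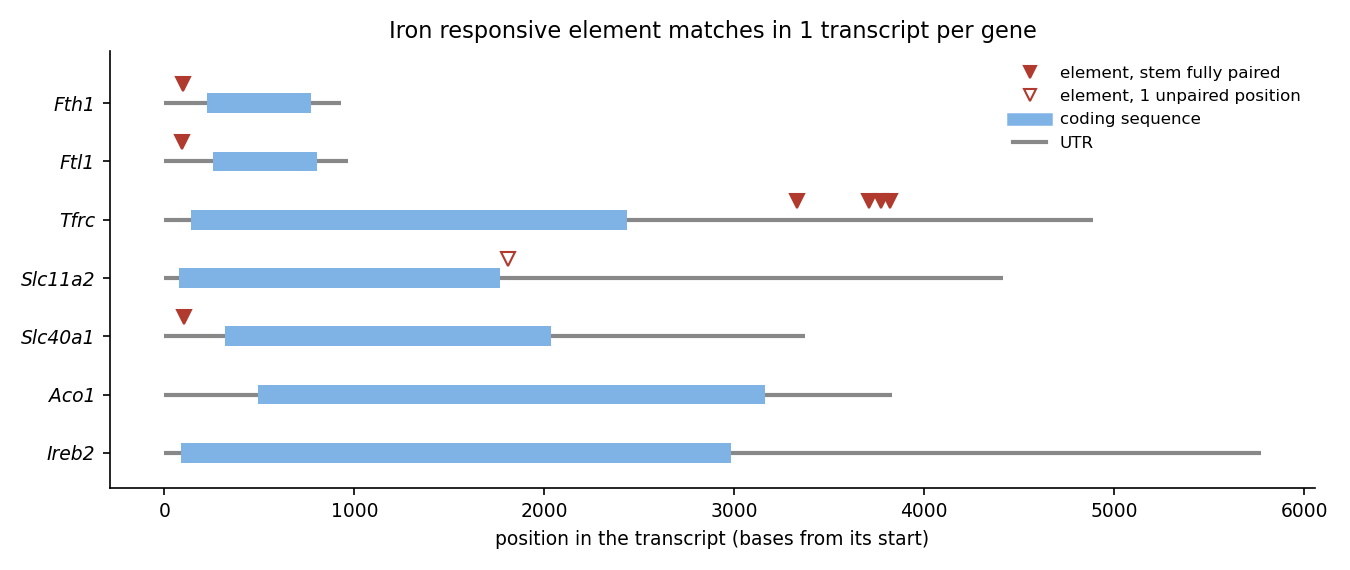
Position of each iron responsive element match (triangles) in 1 annotated transcript per gene, in bases from the transcript start. Fth1, Ftl1 and Slc40a1 carry 1 match each before the coding sequence (blue), Tfrc carries 4 and Slc11a2 1 (open, with 1 unpaired position) after it, and Aco1 and Ireb2 carry none.

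Ferritin mRNA was the most abundant of the 7 in both cell types. On a scale of CPM per kb of counted coding sequence, Fth1 total RNA was 914 ± 32.3 (SD, n = 3) in ESCs and 972 ± 74.9 in EpiLCs, and Ftl1 was 767 in ESCs and 904 in EpiLCs. In ESC total RNA the order was Fth1, Ftl1, Tfrc, Ireb2, Aco1, Slc11a2 and Slc40a1, and each neighbour was separated from the next in every library. In EpiLC total RNA, Fth1 and Ftl1 overlapped, and Slc40a1 had risen past Slc11a2 to overlap with Aco1 (28.3 against 30.8 CPM per kb). Ribosome footprints were ordered differently on this scale. In ESC RPFs, Fth1 (421 CPM per kb) was followed by Tfrc (178), and Ftl1 (94.7) came next with a spread that overlapped Aco1 (62.5). In EpiLC RPFs, Fth1 (272) was apart from Tfrc (111), and then Tfrc, Ftl1 (87.7), Ireb2 (43.2) and Aco1 (41.0) each overlapped their next neighbour. Slc11a2 (22.9) and Slc40a1 (5.05) closed the order, apart from those around them. The place of Ftl1 depends on repeated sequence, described below. Per kb of windows that occur once, a scale added after the data were seen, Ftl1 came first and Fth1 next in all 4 groups, with 1778 CPM for Ftl1, 581 CPM for Fth1 and 184 CPM for Tfrc in ESC RPFs.

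**Figure D2:**
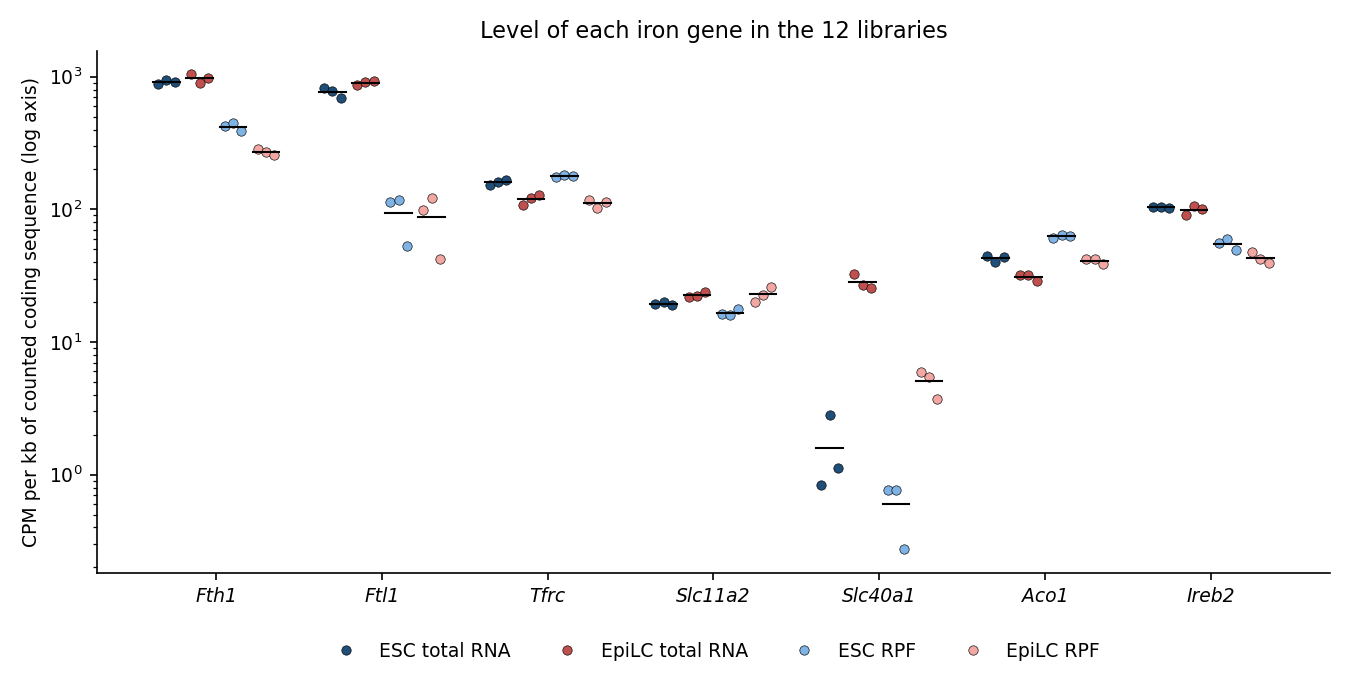
CPM per kb of counted coding sequence (log axis) for the 7 genes in each of the 12 libraries, with points for libraries and a bar for the mean of 3. Slc40a1 rises from 1.60 to 28.3 CPM per kb in total RNA, while the Fth1 RPF points of EpiLCs lie below those of ESCs although its total RNA points overlap.

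Over all tested genes the transition was far-reaching at the level of mRNA and small at the level of TE. At an adjusted p below 0.05 and a log2 fold change beyond 1 in either direction, 24.3% of the 11750 tested genes were called for the mRNA change, 26% for the RPF change and 0.255% for the TE change. With the adjusted p alone these were 65.4%, 59.8% and 1.2%. Of the 7 iron genes, 1 was called for mRNA (Slc40a1, higher), 1 for RPF (Slc40a1, higher) and 0 for TE. With the adjusted p alone, 3 passed for mRNA, 6 for RPF and 1 for TE, the last being Fth1. These tests are voom and limma over all 12 libraries with Benjamini-Hochberg adjustment over 11750 genes, and every adjusted p below comes from them unless another test is named. All values are shares of a library, so that fewer cells expressing a gene and less RNA per cell cannot be told apart.

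**Figure D3:**
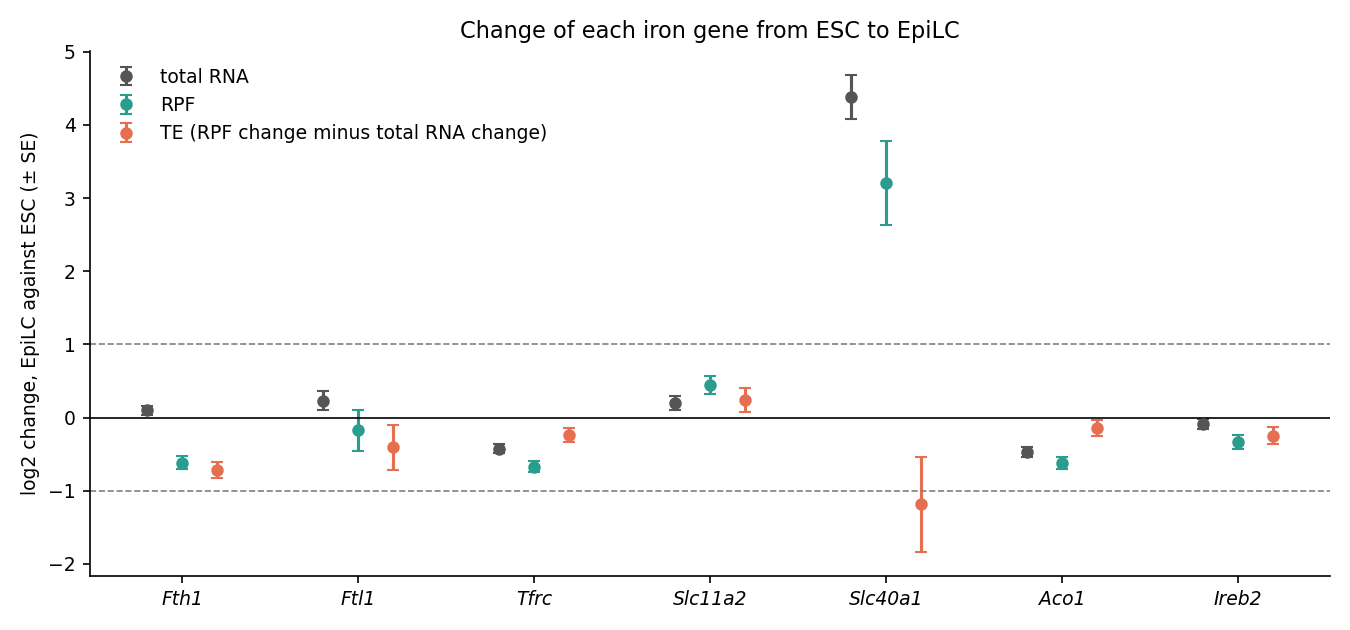
Log2 change from ESC to EpiLC (± SE from limma) of total RNA, RPF and TE for each gene, with dashed lines at the limit of 1 in each direction. Slc40a1 is past the limit for total RNA (4.39) and RPF (3.20), and Fth1 has a total RNA change near 0 (0.10) beside an RPF change of -0.62.

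Fth1 (ENSMUSG00000024661.6, chr19:9982915-9984942, plus strand) lost ribosome footprints in EpiLCs with no fall detected in its mRNA. Total RNA read 444, 476 and 462 CPM in the ESC libraries and 524, 449 and 496 CPM in the EpiLC libraries, and these ranges overlapped. RPFs read 214, 228 and 195 CPM in ESCs and 145, 136 and 130 CPM in EpiLCs, so every EpiLC library was below every ESC library. The mRNA change was 0.10 ± 0.06 (log2, SE, adjusted p = 0.142) and the RPF change was -0.62 ± 0.09 (adjusted p = 1.23e-06), a 1.53-fold fall. The TE change was -0.71 ± 0.10 with an adjusted p of 0.000497, a 1.64-fold fall that ranked 9 of 11750 genes by p. It stayed inside the fold limit of 1 and so was not called.

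Ftl1 (ENSMUSG00000050708.16, chr7:45458107-45459586, minus strand), the partner chain, did not give a clear answer. Its total RNA was 417, 399 and 350 CPM in ESCs and 440, 465 and 470 CPM in EpiLCs, with no overlap but an adjusted p of 0.104 for a change of 0.23 ± 0.12. Its RPFs were 57.8, 59.1 and 27.1 CPM in ESCs and 49.98, 61.98 and 21.39 CPM in EpiLCs. In both cell types the library numbered 3 was the lowest by a wide margin, and the labels tie nothing but the number to it. The RPF change was -0.17 ± 0.28 (adjusted p = 0.611), but -0.68 without ESC RPF replicate 3 (adjusted p = 0.0147), and the TE change was -0.41 ± 0.31 (adjusted p = 0.597). Without EpiLC RPF replicate 3 the TE change turned to 0.14, so no direction can be given for Ftl1, and the fall of TE in Fth1 was not shown to differ from it.

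Within each cell type, the ferritin mRNAs carried few footprints for their abundance. Relative to total RNA, Fth1 RPF was -1.13 ± 0.07 (log2) in ESCs and -1.85 ± 0.08 in EpiLCs, at percentiles 11.5 and 3.66 of all tested genes. Ftl1 was -3.21 ± 0.19 in ESCs and -3.61 ± 0.24 in EpiLCs, at percentiles 0.336 and 0.243. All 4 values were called. Across all tested genes the share called with RPF below total RNA was 13.5% in ESCs and 14.4% in EpiLCs, and of the 7 iron genes 3 were called in ESCs (Fth1, Ftl1 and Slc40a1) and 4 in EpiLCs (the same genes and Ireb2). None of the 7 was called with RPF above total RNA, a direction for which the share over all tested genes was not counted.

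**Figure D4:**
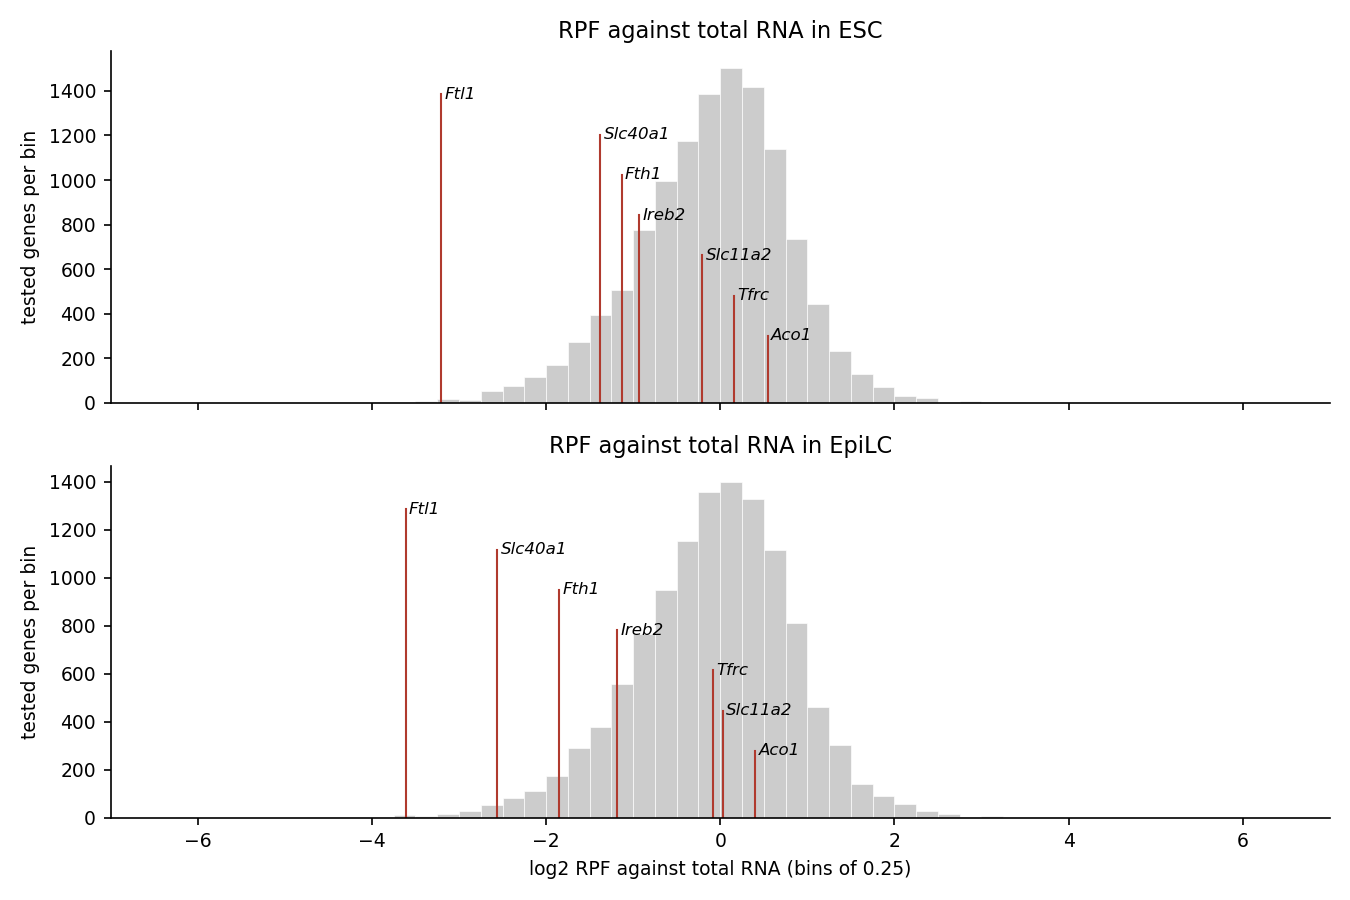
Distribution over the tested genes of the log2 ratio of RPF to total RNA in ESCs (top) and EpiLCs (bottom), in bins of 0.25, with the 7 iron genes as lines whose height carries no value. A few genes beyond 7 in either direction (2 in ESCs, 3 in EpiLCs) are outside the axis. Ftl1, Slc40a1, Fth1 and Ireb2 lie on the low side in both panels, and Aco1 lies above 0 in both.

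The ferritin values depend on how reads of repeated sequence were handled. Only reads with a single mapping position were counted, and both ferritin genes have processed copies elsewhere in the genome. In the counted Ftl1 sequence, 5.36% of windows of 28 bases, a length typical of the footprints kept, were found in no other annotated gene, against 14.1% of windows of 50 bases, the full length of a total RNA read. Total RNA reads were kept from 32 bases upward, and at 32 bases the share was 6.94%. The others were shared with up to 34 annotated genes, 18 of them annotated as pseudogenes. For Fth1 the shares were 72.9% and 88.4%. The other 5 genes were at 100% for both lengths. By this measure a larger part of the ferritin sequence is closed to footprints than to total RNA reads. Counted per window that occurs once, Ftl1 moved from -3.21 to -1.81 in ESCs and from -3.61 to -2.22 in EpiLCs, and Fth1 from -1.13 to -0.85 and from -1.85 to -1.57. In ESCs Fth1 was then inside the fold limit. If total RNA reads were all of 32 bases, Ftl1 would stand at -2.83 and -3.24 and Fth1 at -1.04 and -1.75. The shift is the same in both cell types and cancels in the TE change if read lengths were alike, which the deposited counts do not show. The windows were matched without mismatches and only against annotated transcripts, so unannotated copies are missed. The annotated pseudogene Ftl1-ps1 itself had 3 counts over the 12 libraries. Reads that it shares with another gene were not counted for it either, so this number does not measure its expression.

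**Figure D5:**
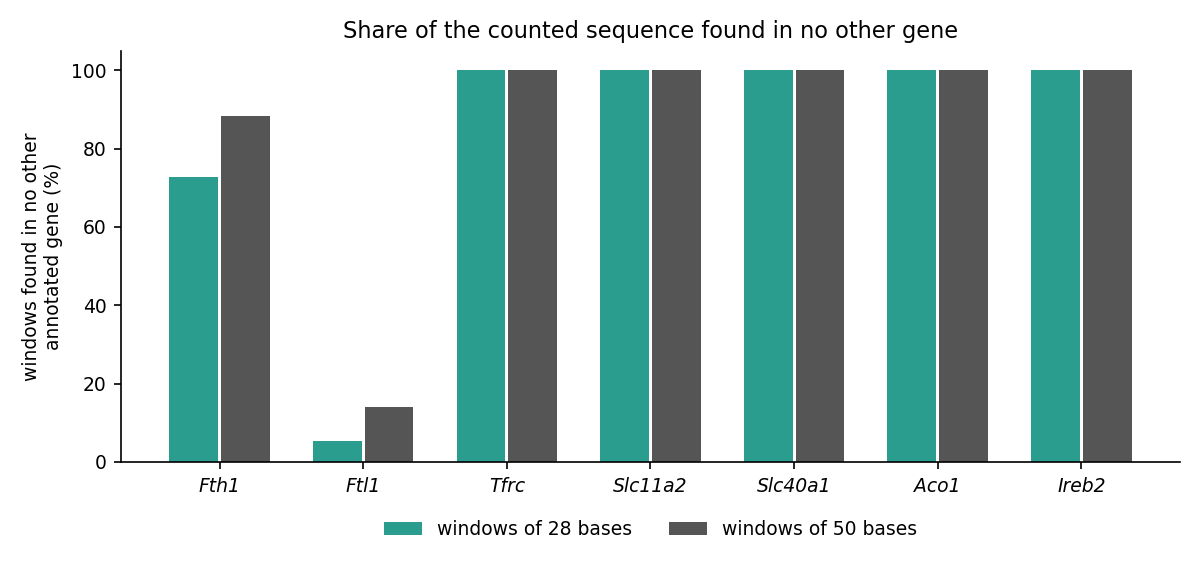
Share (%) of windows of 28 bases (footprint length) and 50 bases (full total RNA read length) in the counted sequence of each gene that occur in no other annotated gene. Ftl1 stands at 5.36% and 14.1%, Fth1 at 72.9% and 88.4%, and the other 5 genes at 100%.

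Shared sequence also touches the balance of the ferritin chains. Per kb, the ratio of Fth1 to Ftl1 was 1.20 in ESC and 1.07 in EpiLC total RNA, and 4.71 and 3.40 in RPFs. Counted per window that occurs once, it was 0.155 to 0.212 over the 6 total RNA libraries and 0.162 to 0.534 over the 6 RPF libraries. The order of the chains thus turned with the scale, and neither can be named the more abundant from these counts.

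Tfrc (ENSMUSG00000022797.15, chr16:32614575-32630336, plus strand), the receptor for iron uptake, fell in EpiLCs in both assays. Total RNA was 355, 371 and 385 CPM in ESCs and 252, 284 and 298 CPM in EpiLCs. RPFs were 407, 423 and 410 CPM in ESCs and 272, 237 and 264 CPM in EpiLCs. In neither assay did the groups overlap. The mRNA change was -0.43 ± 0.06 (adjusted p = 1.53e-06), a 1.34-fold fall, and the RPF change was -0.67 ± 0.07 (adjusted p = 1.69e-08), a 1.59-fold fall. Both passed the adjusted p and stayed inside the fold limit. The TE change of -0.24 ± 0.09 did not pass (adjusted p = 0.231). RPF and total RNA of Tfrc were close within each cell type, at 0.16 ± 0.06 in ESCs and -0.08 ± 0.07 in EpiLCs, although its coding sequence is among the poorest in G and C (41.7%, percentile 3.49). With a correction for GC content the ESC value became 0.82 and the EpiLC value 0.71 (adjusted p = 5.99e-09 for the latter), so its standing within a cell type depends on that choice.

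Slc11a2 (ENSMUSG00000023030.16, chr15:100389084-100410220, minus strand), which takes iron out of endosomes, was expressed at a low level and rose in RPFs. Whether this rise passed the adjusted p depended on 1 library. Total RNA was 33.2, 34.6 and 32.8 CPM in ESCs and 37.3, 38.5 and 40.7 CPM in EpiLCs, groups that did not overlap, with a change of 0.20 ± 0.10 that missed the threshold (adjusted p = 0.0651, and 0.0394 with a GC correction). RPFs were 27.8, 27.4 and 30.7 CPM in ESCs and 34.4, 38.8 and 44.8 CPM in EpiLCs, also without overlap. The RPFs rose by 0.44 ± 0.13 (adjusted p = 0.00412), a 1.36-fold difference, but by 0.29 without EpiLC RPF replicate 3, which did not pass (adjusted p = 0.0985). The rise passed in 11 of the 12 fits that left out 1 library. The TE change was 0.24 ± 0.16 (adjusted p = 0.540).

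Slc40a1 (ENSMUSG00000025993.10, chr1:45909406-45924782, minus strand), the exporter, changed most. It was close to absent from ESC total RNA, with 1.39, 4.72 and 1.89 CPM (19, 56 and 22 counts), and reached 54.7, 44.5 and 42.5 CPM in EpiLCs. RPFs rose from 1.28, 1.28 and 0.459 CPM (10, 6 and 5 counts) to 9.95, 9.13 and 6.19 CPM (48, 24 and 33 counts). Every EpiLC library was above every ESC library in both assays. The mRNA change was 4.39 ± 0.30 (adjusted p = 3.21e-12), a 20.9-fold rise at percentile 99.1 of tested genes, and the RPF change was 3.20 ± 0.58 (adjusted p = 3.62e-05), a 9.21-fold rise. At RPF counts of 5 to 10 in ESCs the size of the rise is imprecise.

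The ribosome load of Slc40a1 was low where it was expressed. In EpiLCs its RPF was -2.56 ± 0.28 against total RNA (adjusted p = 1.27e-08), a 5.91-fold difference at percentile 1.09 of tested genes, and all of its counted sequence was unique. In ESCs the value was -1.38 ± 0.59 (adjusted p = 0.0418), and this call was lost in 5 of the 12 fits that left out 1 library. The TE change of -1.18 ± 0.65 did not pass (adjusted p = 0.433), so the lower value in EpiLCs was not shown to differ from that in ESCs.

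Footprints of both iron regulatory proteins fell, and Aco1, for IRP1, fell in total RNA as well. Aco1 (ENSMUSG00000028405.9, chr4:40163794-40197667, plus strand) had 117, 106 and 114 CPM in ESC total RNA and 83.9, 83.3 and 75.6 CPM in EpiLC total RNA. Its RPFs were 160, 167 and 166 CPM in ESCs and 111, 111 and 101 CPM in EpiLCs. The groups were apart in both assays, with an mRNA change of -0.47 ± 0.07 (adjusted p = 3.13e-06) and an RPF change of -0.62 ± 0.08 (adjusted p = 4.15e-07). TE changed by -0.15 ± 0.11 (adjusted p = 0.592). Aco1 had RPF above total RNA by 0.55 ± 0.07 in ESCs and 0.40 ± 0.08 in EpiLCs, at percentiles 78.1 and 69.4, the highest of the 7, although with the GC correction Tfrc was above it in both cell types (0.82 against 0.64, and 0.71 against 0.47).

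Ireb2 (ENSMUSG00000032293.8, chr9:54865333-54909741, plus strand) had 298, 298 and 289 CPM in ESC total RNA and 256, 302 and 286 CPM in EpiLC total RNA, which overlapped (change -0.09 ± 0.07, adjusted p = 0.266). With the GC correction this change was -0.15 and passed (adjusted p = 0.0218). Its RPFs were 159, 171 and 141 CPM in ESCs and 135, 121 and 113 CPM in EpiLCs, without overlap, and fell by 0.33 ± 0.09 on the log2 scale (adjusted p = 0.00369). The TE change was -0.25 ± 0.12 (adjusted p = 0.338). Within cell types its RPF was -0.93 ± 0.07 against total RNA in ESCs and -1.18 ± 0.09 in EpiLCs. Its coding sequence holds 42.3% G and C. With the correction for GC content the ESC value, which was not called before either, was -0.34. The EpiLC value was then -0.45 and no longer called.

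Ratios within a library do not depend on its scaling. The ratio of Aco1 to Ireb2 per kb was 0.427, 0.384 and 0.429 in ESC total RNA and 0.355, 0.2997 and 0.286 in EpiLC total RNA, a log2 difference of -0.40. In RPFs it was 1.09, 1.06 and 1.27 in ESCs and 0.887, 0.996 and 0.973 in EpiLCs, a difference of -0.26. Per kb, IRP2 mRNA was above IRP1 mRNA in all 6 total RNA libraries, while the footprints of the genes lay near parity, slightly toward IRP1 in ESCs and toward IRP2 in EpiLCs. This gap between the assays was smaller with the GC correction, which raised Ireb2 RPF against total RNA, as given above. The ratio of Tfrc to the sum of Fth1 and Ftl1 was 0.0899, 0.0924 and 0.103 in ESC total RNA and 0.0570, 0.0678 and 0.0672 in EpiLC total RNA, a difference of -0.57. These 3 differences had no overlap between groups and an exact 2-sided permutation p of 0.10 each, the smallest that 3 against 3 libraries allow (adjusted p = 0.20 over 6 comparisons). The other 3 comparisons, Fth1 to Ftl1 in both assays and Tfrc to ferritin in RPFs, overlapped, with exact permutation p of 0.20 to 0.40. Ratios with ferritin carry the limit on shared reads given above.

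The wider group of mRNAs with an element was set beside these. Of all 28 genes with a fully paired 5′ UTR match, 22 were tested, and 8 of these were called with RPF below total RNA in ESCs and 8 in EpiLCs, beside 13.5% and 14.4% over all tested genes. Without the 3 members among them, it was 5 of 19 in each, with a median of -0.30 in ESCs and -0.24 in EpiLCs, beside -0.02 and -0.01 over all tested genes. In each cell type 2 genes of this group were called with RPF above total RNA. The share over all tested genes in that direction was not counted, so nothing is read from this number. For the TE change, 0 of the 22 were called, beside 0.255% over all tested genes. The same 22 had 2 called higher and 2 lower for mRNA, beside 24.3%. Of the 128 genes with a fully paired 3′ UTR match, 96 were tested. With RPF below total RNA, 19 of the 96 were called in ESCs and 18 in EpiLCs, beside the same 13.5% and 14.4%. In each cell type 9 were called with RPF above total RNA, again with no share over all tested genes to set beside them. The medians were -0.17 in ESCs and -0.09 in EpiLCs, beside the same -0.02 and -0.01. For the TE change, 1 of the 96 was called, lower, beside the same 0.255%. These counts over all matches were made after the values of the 7 genes were known.

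The wider iron pathway was described with 4 lists. For uptake, release, storage handling and regulation, 17 of 26 genes were tested, and 4 were called higher and 0 lower for mRNA (median 0.41, beside 0.03 over all tested genes). That median is the value of ceruloplasmin (Cp), which had 0 counts in every total RNA library, so it measures no change. The count of 4 is close to the 24.3% called over all tested genes. The 4 called genes include Slc39a8 (3.54 ± 0.55, adjusted p = 3.98e-06) and Slc39a14 (2.10 ± 0.15, adjusted p = 4.62e-12), zinc and iron importers of the ZIP family. Slc39a8 was near the floor in ESC total RNA (mean 0.499 CPM, and 4.08 CPM in EpiLCs), so the size of its rise is imprecise. Bmp6, the ligand that drives hepcidin in the liver, rose by 1.44 ± 0.43 (adjusted p = 0.00547), also at a low level (mean 1.24 CPM in ESCs and 3.04 CPM in EpiLCs). The 4th, named after its value was seen, was the metalloreductase Steap2 (1.04 ± 0.11). Hepcidin itself (Hamp) had 0 CPM in total RNA.

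In heme synthesis, transport and breakdown, 22 of 23 genes were tested, with 2 higher and 2 lower for mRNA (median -0.20), beside the same 24.3% and 0.03. The largest were the transporter Flvcr2 (-2.10 ± 0.41, adjusted p = 7.95e-05), the heme binding Hebp1 (-1.66 ± 0.12, adjusted p = 1.1e-11) and Pgrmc1 (1.23 ± 0.10, adjusted p = 4.12e-11). Flvcr2 was low in total RNA, with a mean of 4.92 CPM in ESCs and 1.03 CPM in EpiLCs. The remaining call, named after its value was seen, was the heme exporter Flvcr1 (1.09 ± 0.16), so the paralogs Flvcr1 and Flvcr2 changed in opposite directions. In iron-sulfur cluster assembly, 30 of 35 listed symbols were found. The rest (Fdx2, Ind1, Ciao3, Fam96a and Fam96b) are other names of genes already on the list. Of these 30 genes 29 were tested, with 1 higher and 1 lower for mRNA, beside 24.3% over all tested genes. Lyrm4, a partner of the desulfurase Nfs1, rose by 1.15 ± 0.24 (adjusted p = 0.000211), and the cochaperone Hscb fell by 1.08 on the log2 scale (SE 0.14, adjusted p = 4.11e-07). Passing the adjusted p alone were 3 higher and 11 lower, beside 65.4% over all tested genes, with a median of -0.16. Of other mRNAs described to carry an element, 5 of 7 were tested and 0 were called for mRNA by voom and limma, beside the same 24.3%. An adjusted p below 0.05 was reached by 4 (2 in each direction), beside the same 65.4%. In all 4 lists, 0 genes were called for TE and 0 passed the adjusted p alone, beside 0.255% and 1.2% over all tested genes. With shares that small, 0 in lists of this size tells little about iron genes.

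Genes with the profile most like each of the 7 were found by the root mean square difference of centred log2 CPM over the 12 libraries. The nearest were Mpp6 and Prelid1 for Fth1 (0.148 and 0.149), Tyms and Sucla2 for Tfrc (0.0788 and 0.0827), Tsnax and Tbk1 for Slc11a2 (0.0860 and 0.0875), Tfip11 and Emc1 for Aco1 (0.0615 and 0.0692) and Ppp1r12c and Ibtk for Ireb2 (0.0863 and 0.0944). By this distance Ftl1 and Slc40a1 had no close neighbour, with Aoc2 and Map3k10 at 0.351 and 0.375 from Ftl1 and Pth1r and Cacna1g at 0.377 and 0.449 from Slc40a1. By Pearson correlation the same genes were not far, with 0.979 and 0.980 for Ftl1 and 0.990 and 0.975 for Slc40a1. For Slc11a2 and its nearest genes the correlations were 0.907 and 0.902. Since the 12 libraries mix both assays, nearness covers the ratio of RPF to total RNA as well as the change between cell types.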

How the data were processed

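ESCs and EpiLCs were profiled with the TruSeq Ribosome Profiling kit and 50 bp single-end reads, 3 RPF and 3 total RNA libraries each. Groups and replicate numbers came from the sample titles. The authors deposited 1 table of raw counts per gene, together with the length of the counted sequence. Per the labels and the study's methods, they trimmed adapters with cutadapt 1.14 (26 to 32 nt kept for RPFs, at least 32 nt for total RNA), mapped with STAR 2.5.3a to mm10 and Gencode M14, kept reads with a single mapping position, and counted 5′ ends on the sense strand with featureCounts 1.5.3 over coding sequence without its first 45 nt. Replicates were not pooled. Treatment of PCR duplicates is not given in the sources used here.

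From these counts, genes with at least 3 CPM in at least 3 libraries were kept (11750), scaled with TMM factors in edgeR 4.0.16 and fitted with voom and limma 3.58.1 in R 4.3.3, with the 4 groups as levels, all 12 libraries and no replicate block. The study's methods name limma, the interaction term and the CPM filter, and voom and TMM were added because the values are counts. TE change is the interaction of assay and cell type. Changes are given as log2 of EpiLC relative to ESC, after adding 0.5 to each count. P-values were adjusted over 11750 genes, and a call needs an adjusted p below 0.05 and a log2 change beyond 1. The fit was tested on simulated data. Ratios were compared with exact permutation tests, adjusted over 6.

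Symbols were matched by gene ID without version (22385 of 22462). None of the 7 genes shares counted bases with another gene (526 genes do). Elements, GC content (11737 of the 11750) and repeated windows came from Gencode M21 transcripts. A genome sequence was not used here, so repeated windows were sought in annotated transcripts. The members and the gene lists were chosen with earlier results of these data known. Named genes are the 7, up to 3 genes per list with the largest mRNA change among those called, any gene called for TE, and the 2 nearest genes of each member. Alternatives were edgeR quasi-likelihood, DESeq2 1.42.0, limma-trend, other scalings and filters, replicate and culture blocks, a GC correction, no fold limit and leaving out each library. The correlation of deviations from the group mean between same-numbered libraries was -0.18 to 0.16 over 12 pairs, and numbers were not taken as pairs.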

Additional observations from a re-analysis of the deposited data

Results flagged for a closer look

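The TE of Fth1 differed between the cell types by -0.714 on the log2 scale (SE 0.105), by the interaction of assay and cell type over the 12 libraries (voom and limma, adjusted p = 0.000497). RPFs were lower in 3 of 3 EpiLC libraries than in every ESC library, while total RNA overlapped. It is the only difference in the ratio of RPF to total RNA among the 7 genes that passed the adjusted p, and leaving out any 1 library kept it between -0.78 and -0.66. The sums of primitive endoderm markers, mostly through Dab2, and of fibroblast markers were also higher in EpiLC libraries. The part of such cells in this difference was not tested.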

How the results depend on the processing

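The count of members called for mRNA and for RPF (1 each) changed under a strict count filter and without the fold limit, and in no other setting. The count of RPF against total RNA in ESCs (3) was the least stable, running from 1 to 6, with 4 under total counts, where Ireb2 (-1.01) joined. Asking for at least 10 counts in every library removed Slc40a1 from the test, which left 0 calls for mRNA and 0 for RPF. Without the fold limit there were 3 for mRNA, 6 for RPF, 1 for TE and 6 for RPF against total RNA in ESCs. With the GC correction, alone or with the replicate block, 1 gene (Ftl1) was called against total RNA in ESCs. Fth1 was then at -0.999 in ESCs, just inside the limit. The Fth1 TE change lay between -0.72 and -0.69 in 11 other settings, with adjusted p from 1.19e-06 to 0.00272, and passed in all of them and in each of the 12 fits without 1 library (adjusted p 0.000154 to 0.00596). Reversed values were those of Tfrc in EpiLCs with the GC correction (0.71, and 0.70 with the replicate block), Ftl1 RPF change (-0.17) without ESC RPF replicate 1 (0.022) or EpiLC RPF replicate 3 (0.34), Ftl1 TE change without EpiLC RPF replicate 3 (0.14), and Slc11a2 in EpiLCs (0.03) with total counts (-0.011), without EpiLC RPF replicate 3 (-0.070) and without EpiLC total RNA replicate 1 (-0.015). Over the 12 fits without 1 library, the Ftl1 RPF change ran from -0.68 to 0.34, its TE change from -0.87 to 0.14, and Slc11a2 in EpiLCs from -0.070 to 0.16. The Slc40a1 call against total RNA in ESCs was lost with every gene kept and with the GC correction. Leaving out ESC RPF replicate 1, 2 or 3, ESC total RNA replicate 2 or EpiLC RPF replicate 2 also removed it. Its value ran from -1.78 to -0.74 over the fits without 1 library. Where this call was lost the count was 2, but 1 with the GC correction, where Fth1 was lost too. Ireb2 in EpiLCs lost its call with the GC correction (-0.45). The cause of these changes was not tested. The replicate block alone changed no call, with a Fth1 TE change of -0.71. Counts in ESC RPFs (5 to 10) limit Slc40a1, and repeated sequence limits Ftl1.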

Other observations

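Ceruloplasmin (Cp), a copper ferroxidase of iron export on the uptake and release list, had 0 counts in all 6 total RNA libraries, yet 7, 22 and 15 counts in the ESC RPF libraries and 354, 18 and 20 counts in the EpiLC RPF libraries. Its ratio of RPF to total RNA is therefore set by the count added before taking logs, and EpiLC RPF replicate 1 alone holds most of its reads. Of the ferritin-like genes of the X chromosome, Fthl17a had 66 and Fthl17f 50 counts over the 12 libraries, and the other 4 had 0. The annotated pseudogene Ftl1-ps1 had at most 2 counts in a library. Only reads with a single mapping position were counted, so low counts of such copies do not show that they are not expressed.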
